A study of Mus musculus with 20 samples.

Results

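Ion channel transcripts were followed in mouse heart ventricle, with and without the transgene tTA and with and without Doxy. The set holds the genes for the potassium, sodium, calcium and chloride channels and for the pacemaker channels. Members were chosen by gene symbol, from the naming families Kcn, Scn, Cacn, Clcn and Hcn together with the sulfonylurea receptor genes Abcc8 and Abcc9. Cacna1c was left out by the same rule, and its values were not analysed here. The rule found 69 genes on 90 probe sets, of 8251 genes on 12422 probe sets that are not controls. Each gene was read from the probe set with the highest mean over the 19 arrays placed in a group. The rule uses gene symbols and mean intensity only.

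The study asked what tTA does to the heart of FVBN mice, with wild-type mice as the comparison. The array titles give 4 groups: FVBN control with 2 arrays, FVBN + Doxy with 4, tTA with 8 and tTA + Doxy with 5. FVBN control and FVBN + Doxy carry no transgene as far as the titles say, and tTA and tTA + Doxy carry it. Keywords in the labels name the alpha MHC promoter, which in the heart is known to be active in muscle cells, while the sampled ventricle also holds vessel, nerve and connective tissue cells. The tTA protein is a transcription activator that binds tetracycline operator sequences, and doxycycline, for which Doxy is taken to stand, keeps it from binding. The labels name no age, sex, dose or number of transgenic lines. They also do not state whether each array is a different animal, and p-values here speak only to the spread among arrays, which may be technical. The numbers in the titles do not mix genotypes or Doxy groups, so cohort and group cannot be told apart.

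Ion channels set the electrical cycle of a ventricular muscle cell. Sodium channels start the action potential, calcium channels carry the current that triggers contraction, and several kinds of potassium channel end it and hold the cell at rest. Channels sensitive to ATP link this cycle to the energy state of the cell, and are built from pore subunits (Kcnj11 or Kcnj8) and sulfonylurea receptor subunits (Abcc8 or Abcc9). The same channels are also found in the smooth muscle and pericytes of coronary vessels, where Kcnj8 and Abcc9 are typical.

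The deposited values are intensities on a linear scale. Array medians ran from 60.74 to 62.45, and the log2 values of any 2 arrays of a group had a Pearson r of 0.9927 to 0.9982. The 9 measured ventricular muscle markers, such as Myl2 and Tnni3, were among the brightest probe sets, with every one at or above the 94.1th percentile. Of the 6 atrial markers measured, Myl7 at an intensity of 37.97 and Dkk3 at 37.31 were too dim to be tested, while Nppa at 282.4, Gja5 at 119, Myl4 at 80.13 and Sln at 45.9 were above the limit. Of the RNA quality ratios compared, only that of beta-actin differed between genotypes. It is the log2 signal near the 3' end of the transcript over that near its 5' end, and averaged 0.338 on the 13 tTA arrays and 0.522 on the 6 FVBN arrays (exact two-sided permutation test, p = 0.00059, adjusted over 6 tests 0.00354). The same ratio for Gapdh was 0.0387 and 0.0398 (exact p = 0.974).

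Many channel transcripts were dim. Testing was limited to the brightest 60% of probe sets, those with a mean intensity of at least 44.39, which kept 38 channel genes and left out 31. Just inside that limit were Kcne1l at 48.52, Kcnc1 at 46.84 and Cacng1 at 44.73, and just outside it were Clcn5 at 37.78, Kcna2 at 36.51 and Kcnma1 at 36.03. The families fared differently. Of 6 sodium channel genes, none was above the limit, and Scn1a, Scn3a and Scn9a, which are best known from nerve cells, lay at the floor of 14.37 on all 19 arrays. Of 6 calcium channel pore genes only Cacna1b was above it, at 123.3, while all 5 calcium channel auxiliary subunits were. Both pacemaker channel genes were bright enough, with Hcn2 at 728.1 and Hcn3 at 286.3. Genes bright enough to be tested numbered 8 of 16 voltage-gated potassium pores, 4 of 5 potassium auxiliary subunits, 7 of 13 inward rectifiers and sulfonylurea receptors, 4 of 5 tandem-pore channels, 2 of 5 calcium- or sodium-activated potassium channels and 5 of 6 chloride channels. A dim probe set can reflect few transcripts or probes that bind poorly, so no gene's intensity is set against another's.

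**Figure D1:**
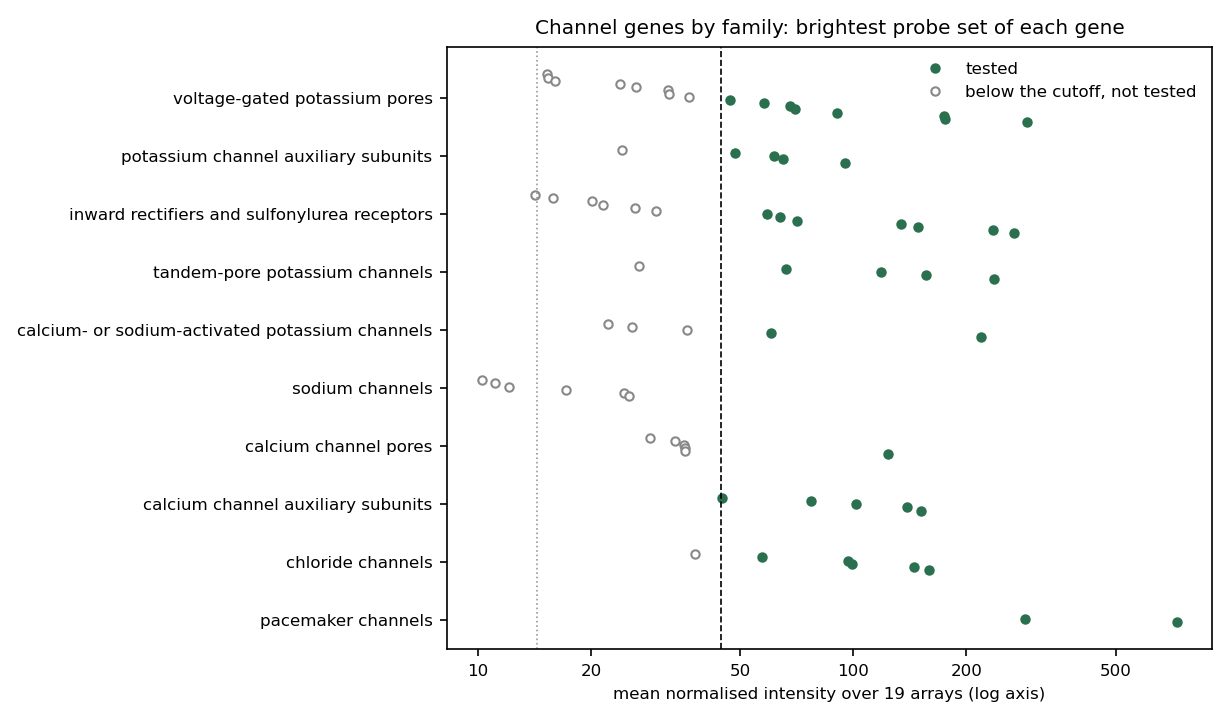
Mean normalised intensity of the brightest probe set of each of the 69 channel genes over 19 arrays, on a log axis, with 1 line of points per family. Filled points were tested, open points fell below the dashed cutoff at 44.39, and the dotted line is the floor at 14.37. All 6 sodium channel genes lie left of the cutoff and both pacemaker genes lie right of it.

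Channels that textbooks give for ventricular muscle were only in part within reach. Of 35 such genes on the list, 25 had a probe set that named them alone, 16 were tested and 9 were too dim. The dim genes include the main pores of the resting potassium current, Kcnj2 at 14.2 and Kcnj12 at 21.5. They also include Kcnd2 at 15.3 and Kcna4 at 16.0, both pores of the transient outward current, and the T-type calcium channel genes Cacna1g at 35.3 and Cacna1h at 35.6. The other dim genes were Kcnj3 at 15.8, Kcnmb1 at 22.2 and Kcnma1 at 36.0.

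The gene that differed most clearly between genotypes was Abcc9, which encodes SUR2, the sulfonylurea receptor of heart and vessel muscle. Without Doxy its log2 intensity was 8.61 and 8.56 on the FVBN control arrays and 7.65 to 8.25 on the 8 tTA arrays, with a median of 7.88. Every tTA array lay below both controls. Here and below, the share of all probe sets that separate groups of arrays in this way was not counted. On the FVBN + Doxy arrays Abcc9 read 8.004, 8.30, 8.39 and 8.18. With tTA and Doxy together it was 7.51, 7.72, 7.995, 7.91 and 8.02. The tTA + Doxy arrays thus lay low, with only the highest of them above the lowest FVBN + Doxy array, and the FVBN + Doxy arrays lay between the controls and most tTA arrays.

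Abcc9 fell by 0.66 ± 0.14 (SE) on the log2 scale in tTA against FVBN control, from 8.58 ± 0.04 (SD, n = 2) to 7.93 ± 0.20 (SD, n = 8), which is 1.58-fold lower (95% interval of the log2 difference -0.95 to -0.367, limma adjusted p = 0.0131). It was the only one of the 38 tested channel genes to pass in that comparison, where 2.79% of all 7453 tested probe sets passed. Under Doxy the difference was -0.39 ± 0.12 and did not pass (95% interval -0.635 to -0.141, limma adjusted p = 0.0592). The size of the genotype difference was not shown to change with Doxy, since the interaction was 0.27 ± 0.18 (limma adjusted p = 0.486). FVBN + Doxy against FVBN control gave -0.37 ± 0.15 (limma adjusted p = 0.396) and tTA + Doxy against tTA gave -0.10 ± 0.10 (limma adjusted p = 0.878). These comparisons share arrays: FVBN control enters the first genotype and the first Doxy comparison, and FVBN + Doxy enters the second genotype comparison and the first Doxy comparison.

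The call on Abcc9 rests on few control arrays, as does the share of all probe sets that passed beside it. It was lost without control array 8177 (-0.63, limma adjusted p = 0.206), without control array 8182 (-0.69, limma adjusted p = 0.115) and with the actin ratio in the fit (-0.59, limma adjusted p = 0.236). In the same 3 settings the share of all tested probe sets that passed was 0.725%, 0.845% and 0.349%, against 2.79%. Under Doxy the difference passed in 6 of 30 alternative settings, among them leaving out FVBN + Doxy array 8337 (-0.46, limma adjusted p = 0.0459), tTA array 7308 (adjusted p = 0.0447) or tTA array 9322 (adjusted p = 0.036). Because the samples are whole tissue, fewer cells of a type and less RNA per cell cannot be told apart.

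**Figure D2:**
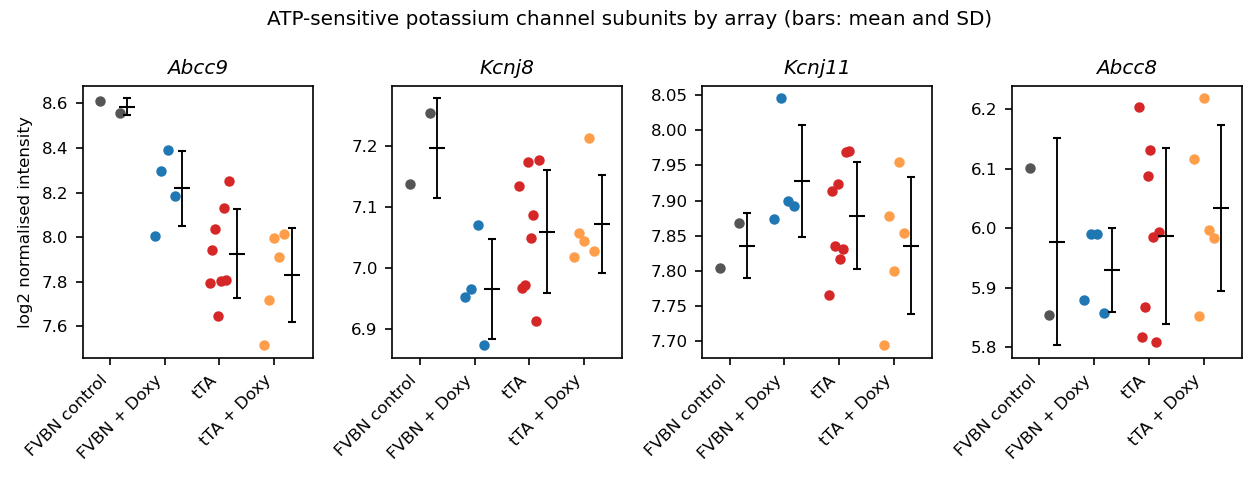
Log2 normalised intensity of the 4 genes for subunits of ATP-sensitive potassium channels, 1 point per array, in the 4 groups, with mean and SD as bars beside the points; each panel has its own scale. For Abcc9 both control points, at 8.56 and 8.61, lie above all 8 tTA points, which end at 8.25, while the groups overlap for Kcnj11 and Abcc8 between tTA and control.

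The partners of Abcc9 did not pass in any comparison. Kcnj8, which encodes the Kir6.1 pore, read 7.14 and 7.25 on the control arrays and 6.95, 6.97, 7.07 and 6.87 on the FVBN + Doxy arrays, so that those groups did not overlap. In tTA it ran from 6.91 to 7.18 with a median of 7.07, and in tTA + Doxy it was 7.02, 7.06, 7.04, 7.21 and 7.03. FVBN + Doxy against FVBN control differed by -0.23 ± 0.08 (limma adjusted p = 0.351) and tTA against FVBN control by -0.14 ± 0.07 (limma adjusted p = 0.327). The latter was -0.08 without control array 8182 (limma adjusted p = 0.741) and -0.05 with the actin ratio in the fit (limma adjusted p = 0.931). The genotype difference under Doxy had the other sign, at 0.11 ± 0.06 (limma adjusted p = 0.308), and the interaction was 0.24 ± 0.09 (limma adjusted p = 0.266). Kcnj11, the Kir6.2 pore of heart muscle, differed by 0.04 ± 0.06 without Doxy and by -0.09 ± 0.06 with it. Abcc8, which encodes SUR1, differed by 0.01 ± 0.10 and 0.10 ± 0.08.

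Smooth muscle and pericyte markers, read because these cells express Abcc9, had no common direction from gene to gene. Of 10 listed genes 9 were measured and 8 tested, of which 4 were higher and 4 lower in each genotype comparison, with median log2 differences of 0.00799 without Doxy and -0.00428 with it. The summed log2 level of those measured ran from 10.138 to 10.192 in FVBN control, from 10.006 to 10.195 in FVBN + Doxy, from 9.790 to 10.042 in tTA and from 9.949 to 10.182 in tTA + Doxy. The FVBN control and tTA ranges of that sum did not overlap. The sum weighs bright genes most, and Acta2 was the brightest of them at an intensity of 264.6. Within the list, Acta2 (smooth muscle actin) fell by 1.27 ± 0.20 in tTA against FVBN control (limma adjusted p = 0.00152) and by 0.66 ± 0.17 under Doxy (limma adjusted p = 0.0277). No other member passed without Doxy, where 2.79% of all tested probe sets did. Under Doxy, where 5.88% of all passed, Myl9 (0.53 ± 0.06) and Smtn (0.26 ± 0.06) rose. In 20 settings that left out 1 array or added the actin ratio, the calls under Doxy held in 20 for Myl9, 17 for Smtn and 13 for Acta2. That on Acta2 was lost without FVBN + Doxy array 8337, 8338 or 8340, or tTA + Doxy array 7399, 7486 or 7488. That on Smtn was lost without FVBN + Doxy array 8337 or 8340 or tTA + Doxy array 7485. The Acta2 call without Doxy was lost without control array 8177 (-1.17, limma adjusted p = 0.0651) and with the actin ratio in the fit (-0.98, limma adjusted p = 0.101), and the call under Doxy was lost with that ratio too (-0.48, limma adjusted p = 0.131).

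Most endothelial markers read slightly lower with tTA. Of the 10 listed, all tested, 9 were lower in each genotype comparison, with medians of -0.114 and -0.0837. Over all tested probe sets 45% and 56.1% were lower, with medians of 0.0134 and -0.0147. Only Emcn passed, without Doxy, where 2.79% of all tested probe sets did. Their summed log2 level ran from 11.302 to 11.330 in FVBN control, from 11.108 to 11.349 in FVBN + Doxy, from 11.135 to 11.254 in tTA and from 11.062 to 11.189 in tTA + Doxy. Here too the FVBN control and tTA ranges did not overlap. The part of smooth muscle, pericyte and endothelial cells in the Abcc9 values was not tested.

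Abcc9 and Kcnj8 lie next to each other on mouse chromosome 6, with 0 genes listed between them. Their promoters are shown because these neighbouring genes encode the receptor and a pore of one channel and gave different genotype values. Sequences are those of RefSeq on GRCm38.p6, minus strand, from 250 bases before to 50 after the gene start, 5′ to 3′. Abcc9 is at chr6:142702225-142702524 and Kcnj8 at chr6:142571565-142571864. Capitals mark matches to the motifs searched.
Abcc9: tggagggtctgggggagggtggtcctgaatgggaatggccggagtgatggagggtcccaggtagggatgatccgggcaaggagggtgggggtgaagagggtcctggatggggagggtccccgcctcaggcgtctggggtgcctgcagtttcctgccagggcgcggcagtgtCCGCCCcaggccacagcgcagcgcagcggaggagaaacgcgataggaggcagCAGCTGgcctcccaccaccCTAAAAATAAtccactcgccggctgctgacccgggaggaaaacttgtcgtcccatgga
Kcnj8: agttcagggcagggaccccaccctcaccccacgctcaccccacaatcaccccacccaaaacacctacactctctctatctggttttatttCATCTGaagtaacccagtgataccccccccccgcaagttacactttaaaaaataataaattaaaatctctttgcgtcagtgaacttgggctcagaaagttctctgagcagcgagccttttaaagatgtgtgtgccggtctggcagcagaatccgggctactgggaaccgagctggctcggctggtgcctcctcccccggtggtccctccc
The Abcc9 window is richer in G and C, at 65.7% against 53.3%. Searched on both strands were the MEF2 consensus, named for a family of muscle transcription factors, the E-box CANNTG, the GATA factor core GATAA, the TATA box TATAAA and the GC box GGGCGG. In the Abcc9 window the MEF2 consensus matched at -8 from the start (CTAAAAATAA), the E-box at -27 (CAGCTG) and the GC box at -79 (CCGCCC, on the other strand). The Kcnj8 window held an E-box at -160 (CATCTG) and none of the other motifs. Of 32851 promoters of this length in the table, 3.19% held the MEF2 consensus, 72.3% an E-box, 25.4% GATAA, 13.6% TATAAA and 35.7% a GC box. These are matches of letters, not sites shown to be bound.

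None of the remaining channel genes passed between tTA and FVBN control. Of all 38 tested, Abcc9 among them, 4 had an unadjusted p below 0.05, against 16.7% of all tested probe sets. Their median log2 difference was 0.0414, with 27 of 38 higher, beside a median of 0.0134 and 55% higher over all tested probe sets. The median half-width of a channel gene's 95% interval, which is not adjusted for the number of probe sets, was 0.141. Differences below about that size could not be told from 0, and larger ones could also fail the adjusted p. Those of Kcnn1 at 0.19 and Cacnb2 at -0.30 did not pass.

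Without Doxy the lowest value after that of Abcc9 was that of Cacnb2. This gene, a beta subunit that brings calcium channel pores to the cell surface, read 7.58 and 7.42 in control, 6.95, 7.42, 7.29 and 7.35 in FVBN + Doxy, 6.999 to 7.37 (median 7.21) in tTA and 6.997, 7.11, 7.25, 7.25 and 7.19 in tTA + Doxy. Every tTA array lay below both controls, at a difference of -0.30 ± 0.10 that did not pass (limma adjusted p = 0.114). It passed when FVBN + Doxy array 8337 was left out of the shared estimate of spread (limma adjusted p = 0.0489). Under Doxy the difference was -0.09 ± 0.08. Kcnj9, an inward rectifier subunit chosen after its values were seen, differed by -0.30 ± 0.14 without Doxy on its brightest probe set (limma adjusted p = 0.318) and by -0.01 ± 0.06 on the other. Cacna2d1, the alpha2-delta subunit of heart calcium channels, differed by 0.12 ± 0.07 without Doxy and -0.02 ± 0.06 with it.

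The highest value was that of Kcnn1, a small-conductance potassium channel opened by calcium. It read 7.56 and 7.70 in control, 7.83, 7.72, 7.75 and 7.81 in FVBN + Doxy, 7.72 to 7.86 (median 7.83) in tTA and 7.65, 7.85, 7.78, 7.71 and 7.75 in tTA + Doxy. All tTA arrays lay above both controls, by a mean of 0.19 ± 0.05 that did not pass (limma adjusted p = 0.0682). With the actin ratio in the fit the difference was 0.10 (limma adjusted p = 0.707). Without tTA array 7294 it was 0.20 (limma adjusted p = 0.0459). Control array 8177 was the lowest of all 19 arrays, and without it the difference was 0.11 (limma adjusted p = 0.683). The Doxy difference in FVBN was 0.15 ± 0.06 (limma adjusted p = 0.383), or 0.08 without that array (limma adjusted p = 0.933), and the genotype difference under Doxy was -0.03 ± 0.05.

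Hcn2, a pacemaker channel gene, had the same order of groups. Its values were 9.34 and 9.41 in control, 9.49, 9.51, 9.51 and 9.60 in FVBN + Doxy, 9.44 to 9.71 (median 9.51) in tTA and 9.61, 9.54, 9.36, 9.36 and 9.56 in tTA + Doxy. No tTA array overlapped the controls, but the difference of 0.17 ± 0.07 did not pass (limma adjusted p = 0.204), and with the actin ratio in the fit it was 0.09 (limma adjusted p = 0.849). The probe set used is of a kind designed under relaxed rules (suffix _r_at). A second and dimmer one, at a mean of 62.31, gave 0.12 ± 0.14 (limma adjusted p = 0.709). Hcn3, the other pacemaker gene measured, differed by 0.09 ± 0.05 (limma adjusted p = 0.426).

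Potassium channels that end the action potential gave small values in this comparison on their brightest probe sets. Kcnd3, a pore of the transient outward current, differed by 0.08 ± 0.06, and Kcnq1, the pore of the slow delayed rectifier, by 0.04 ± 0.07. The Kcnq1 probe set also has the suffix _r_at, and the other for that gene gave -0.16 ± 0.08 (limma adjusted p = 0.358). Kcnh2, the pore of the rapid delayed rectifier, differed by -0.01 ± 0.08, Kcna5, a pore of the ultrarapid current, by -0.07 ± 0.09 and Kcne1, the partner of Kcnq1, by -0.11 ± 0.07. For Kcnh2 the 95% interval ran from -0.172 to 0.144. The chloride channel genes ran from -0.144 (Clcn4) to 0.0978 (Clcn1) on their brightest probe sets, and none of the 5 passed. Clcn7 has a second probe set nearly as bright, at 144.6 against 145.2. It gave 0.163 ± 0.047 (limma adjusted p = 0.0649), against -0.0523 on the brightest.

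**Figure D3:**
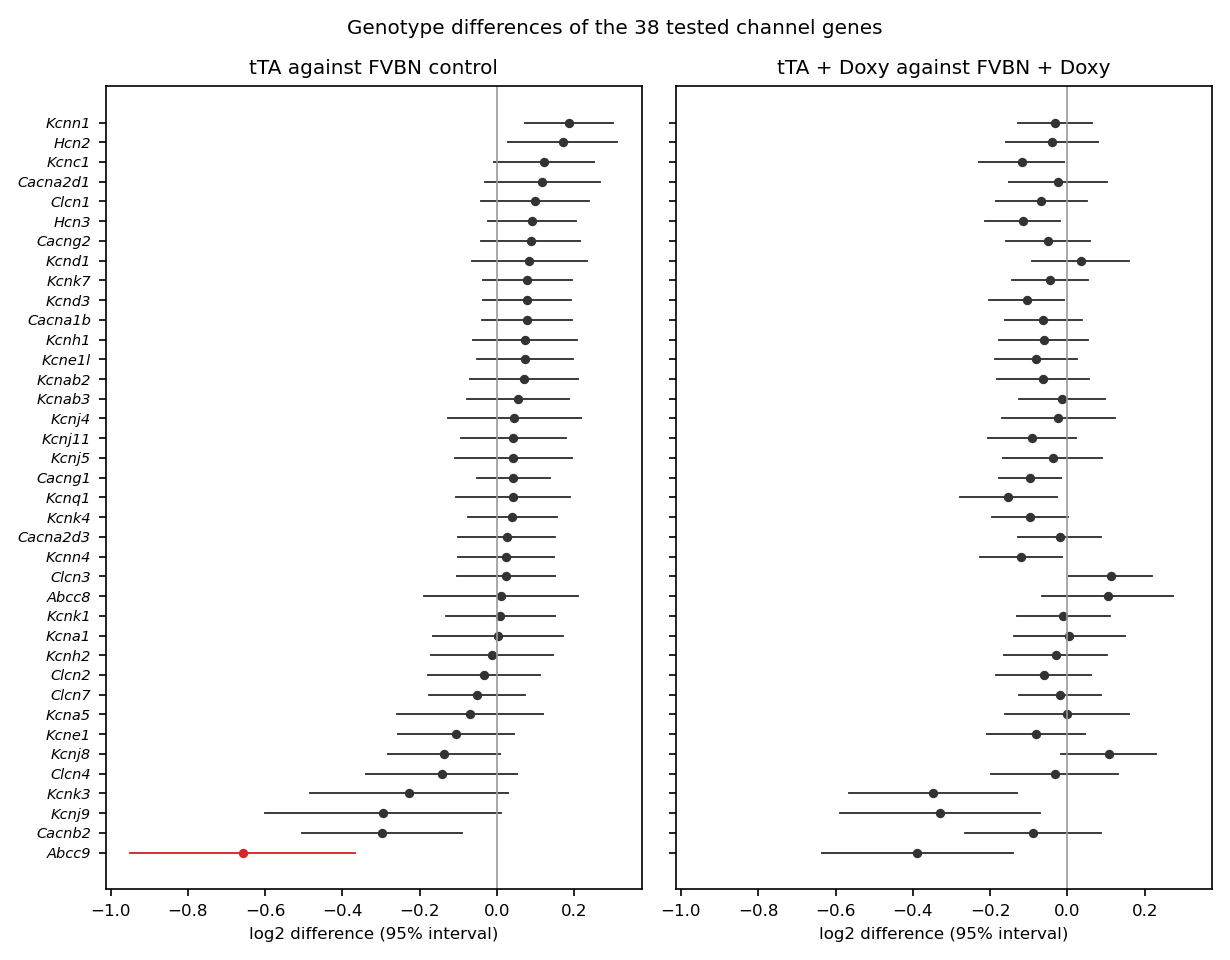
Log2 difference of each of the 38 tested channel genes between genotypes, with its 95% interval, without Doxy on the left and with Doxy on the right, in the order of the left panel. The gene in red passed at an adjusted p below 0.05; this is Abcc9 on the left, at -0.66. On the right 33 of 38 points lie below 0 and none passed.

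Under Doxy, most channel genes read slightly lower with tTA. In tTA + Doxy against FVBN + Doxy none of 38 passed, where 5.88% of all tested probe sets did. That share was 3.26% without FVBN + Doxy array 8341, 3.64% when array 8337 of the same group was left out, 3.64% also when tTA + Doxy array 7488 was, and 3.65% when array 7485 was. An unadjusted p below 0.05 was found for 10 of 38 against 21.1% of all, of which 9 were lower. The median was -0.0562 with 33 of 38 lower, beside -0.0147 and 56.1% lower over all tested probe sets. All 5 calcium channel auxiliary subunits, all 4 potassium auxiliary subunits and all 4 tandem-pore channels had values below 0, and 6 of 8 voltage-gated potassium pores did. None of those differences passed. Of 31 other settings, 15 moved this median, to between -0.0878 with the actin ratio in the fit and -0.0326 with all probe sets tested. The rest left it as it was, most of them because they cannot change it. It changed sign on the second brightest probe sets, which were above the intensity limit for only 7 of these genes. There the median was 0.0235, against -0.0329 on the brightest probe sets of the same genes.

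Kcnk3, which encodes the tandem-pore channel TASK-1, came nearest to passing. It read 8.08 and 7.83 in control, 7.89, 8.31, 8.25 and 8.22 in FVBN + Doxy, 7.59 to 7.92 (median 7.71) in tTA and 7.70, 7.76, 7.74, 8.22 and 7.66 in tTA + Doxy. Of the 5 tTA + Doxy arrays, 4 lay below all FVBN + Doxy arrays, and array 7486 lay among them. The difference was -0.35 ± 0.10 (95% interval -0.565 to -0.13, limma adjusted p = 0.0537).

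Whether this difference of Kcnk3 passed depended on single arrays and on the settings of the fit. Over 30 alternative settings it ran from -0.45 to -0.24 and passed in 6. Without array 7486 it was -0.45 (limma adjusted p = 0.00338), without FVBN + Doxy array 8337 it was -0.44 (limma adjusted p = 0.0179), and it also passed without tTA array 7310 (limma adjusted p = 0.0492). With the actin ratio in the fit it was -0.24 (limma adjusted p = 0.207). Without Doxy the genotype difference of Kcnk3 was -0.23 ± 0.12 (limma adjusted p = 0.363). It was -0.10 without control array 8177 (limma adjusted p = 0.93), -0.35 without control array 8182 (limma adjusted p = 0.348) and -0.07 with the actin ratio in the fit (limma adjusted p = 0.957).

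Other potassium and pacemaker genes had smaller differences under Doxy. Kcnq1 differed by -0.15 ± 0.06 (limma adjusted p = 0.143), but -0.09 without FVBN + Doxy array 8337 (limma adjusted p = 0.449), and its second probe set gave 0.02 ± 0.07. Hcn3 differed by -0.11 ± 0.05 (limma adjusted p = 0.152) and Kcnc1, a fast delayed rectifier pore near the intensity limit, by -0.12 ± 0.05 (limma adjusted p = 0.196). Kcnd3 read 7.35 and 7.40 in control, 7.54, 7.48, 7.60 and 7.53 in FVBN + Doxy, 7.32 to 7.53 (median 7.45) in tTA and 7.37, 7.46, 7.44, 7.35 and 7.54 in tTA + Doxy. Of those 5 arrays, 4 lay below every FVBN + Doxy array, at a difference of -0.11 ± 0.05 that did not pass (limma adjusted p = 0.188). Kcnn4, an intermediate-conductance channel opened by calcium, differed by -0.12 ± 0.05 (limma adjusted p = 0.173). Kcnj9 differed by -0.33 ± 0.12 on its brightest probe set (limma adjusted p = 0.126) and by -0.02 ± 0.06 on the other.

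Among calcium and chloride channel genes, a call depended on the filter or on 1 array. Cacng1, a gamma subunit best known from skeletal muscle, differed by -0.10 ± 0.04 (limma adjusted p = 0.15) and passed when all 12422 probe sets were tested (adjusted p = 0.0478). Clcn3, an endosomal chloride transporter, was the only gene with an unadjusted p below 0.05 that was higher. It read 7.21, 7.15, 7.18 and 7.29 in FVBN + Doxy and 7.38, 7.13, 7.38, 7.36 and 7.34 in tTA + Doxy, a difference of 0.11 ± 0.05 (limma adjusted p = 0.213). Without array 7424, the low one, it was 0.16 (limma adjusted p = 0.0447). The second brightest of the 4 Clcn3 probe sets, at a mean of 55.43, gave 0.20 ± 0.07 (limma adjusted p = 0.104). Those below the intensity limit gave 0.295 and 0.0471.

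**Figure D4:**
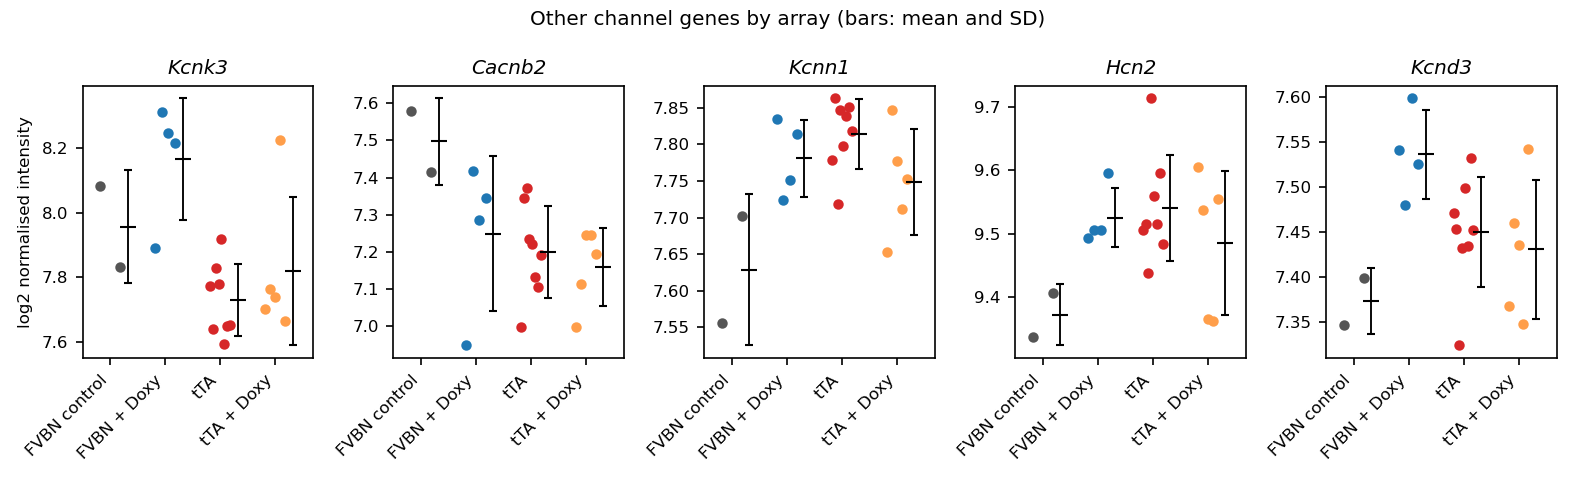
Log2 normalised intensity of Kcnk3, Cacnb2, Kcnn1, Hcn2 and Kcnd3, 1 point per array in the 4 groups, with mean and SD as bars beside the points; each panel has its own scale. The lone high tTA + Doxy point of Kcnk3 is array 7486 at 8.22, and the 2 control points lie below all tTA points for Kcnn1 and Hcn2.

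Within a genotype, no channel gene passed between arrays with and without Doxy. In FVBN + Doxy against FVBN control none of the 38 passed (limma, adjusted p), where 0.0403% of all tested probe sets did, and 8 of 38 had an unadjusted p below 0.05 against 11.8% of all. Their median difference was 0.0894 with 28 of 38 higher, beside 0.0103 and 53.7% over all. On the second brightest probe sets of 7 genes the median was -0.0102, against -0.0394 on the brightest of the same genes. Tested genes with all 4 Doxy arrays above both controls included Kcnd3 at 0.16 ± 0.06 (limma adjusted p = 0.363) and Hcn3 at 0.16 ± 0.06 (limma adjusted p = 0.378). They also included Cacng1 at 0.14 ± 0.05 (limma adjusted p = 0.363), Kcnc1, Hcn2, Kcnn1 and Cacna1b. Cacng2, Cacna2d3, Kcnj4, Kcnj11 and Kcnk4 lay above both controls too. For Abcc9 and Kcnj8 all 4 Doxy arrays lay below both controls. The share of all tested probe sets that separate these groups in either direction was not counted. In tTA + Doxy against tTA none of 38 passed (limma, adjusted p), against 0.0671% of all, and 0 of 38 had an unadjusted p below 0.05 against 7.65% of all. There the values ran from -0.0958 (Abcc9) to 0.0895 (Kcnk3), with a median of -0.0221.

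The test of whether the Doxy difference depended on genotype called none of 38 channel genes (limma, adjusted p), against 0.0134% of all probe sets. An unadjusted p below 0.05 was found for 8 of 38 against 14.6% of all, 7 of them below 0. The lowest values were those of Kcnc1 at -0.24 ± 0.08 (limma adjusted p = 0.246), Kcnn1 at -0.22 ± 0.07 (limma adjusted p = 0.246, or -0.14 without control array 8177), Hcn2 at -0.21 ± 0.09 (limma adjusted p = 0.302) and Hcn3 at -0.21 ± 0.07 (limma adjusted p = 0.25). On the second and dimmer Hcn2 probe set the Doxy difference was 0.06 ± 0.15 in FVBN (limma adjusted p = 0.896). In tTA it was 0.13 ± 0.10 there (limma adjusted p = 0.79), so that the order was opposite to that on the brightest. The median over the 38 genes was -0.1, beside -0.011 over all tested probe sets, and 28 of 38 were below 0 against 53.1% of all. The median was 0.0771 on the second brightest probe sets of 7 genes, against 0.0319 on the brightest of the same genes.

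How many channel genes read high on each array varied within and between groups. On the control arrays 13 and 14 of the 38 genes lay above their own mean over the 19 arrays. On the FVBN + Doxy arrays 26, 21, 27 and 27 did. The tTA arrays spread from 6 to 27 with a median of 22.5, and the tTA + Doxy arrays gave 17, 22, 11, 14 and 9. The tTA arrays covered the whole range of the other groups and reached below it, and the FVBN groups, with 2 and 4 arrays, did not overlap. Neuron and Schwann cell markers, of which 10 of 12 were measured and 3 tested, had summed log2 levels of 9.138 to 9.144 in control and of 9.156 to 9.290 on the other arrays, and their part in these counts was not tested. Of that list Uchl1 at an intensity of 156.4, Stmn2 at 140 and Sox10 at 139.8 were above the limit. Nefm at 36.29, Prph at 35.13, Mbp at 34.4 and S100b at 19.48 were below it, and Snap25 at 15.61, Syt1 at 12.18 and Nefl at 10.64 lay near or below the floor.

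**Figure D5:**
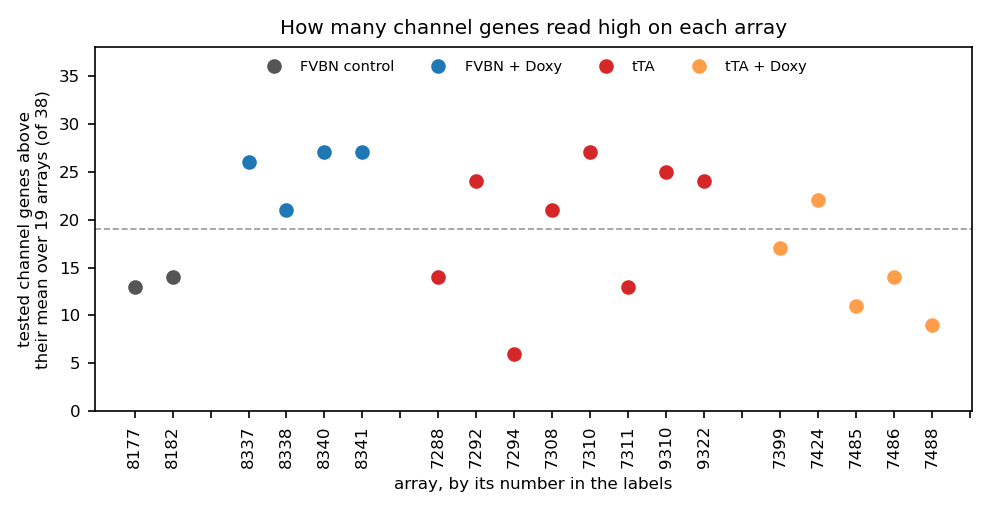
Number of the 38 tested channel genes that lie above their own mean over the 19 arrays, for each array by its number in the labels, coloured by group; the dashed line marks 19 genes. The 2 FVBN control arrays lie at 13 and 14 and the 4 FVBN + Doxy arrays at 21 to 27, while the 8 tTA arrays spread from 6 to 27.

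Genes below the intensity limit were also read in a fit on all probe sets. None of the 31 passed in the 4 comparisons, where 1.2%, 2.27%, 0.00805% and 0.0161% of all 12422 probe sets passed in the order given above. In limma an unadjusted p below 0.05 was found for 2 of 31 in tTA against FVBN control (13% of all probe sets), 2 in tTA + Doxy against FVBN + Doxy (15.7%), and 0 in each Doxy comparison (9.61% and 6.56%). Kcnj12, an inward rectifier of the resting potassium current, read 4.24 and 4.19 in control, 4.31, 4.29, 4.26 and 4.24 in FVBN + Doxy, 4.36 to 4.67 (median 4.44) in tTA and 4.53, 4.45, 4.38, 4.78 and 4.41 in tTA + Doxy. All 13 tTA arrays lay above all 6 FVBN arrays, though close to the floor of 3.845 on this scale. The share of all probe sets that separate the genotypes this way was not counted. For Kcnj12 the differences were 0.27 ± 0.09 without Doxy (limma adjusted p = 0.176) and 0.23 ± 0.08 with it (limma adjusted p = 0.126), and neither passed. Values this near the floor understate a fold.

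Pumps, exchangers and cotransporters carry the same ions across the membrane. Of 29 listed, 16 were measured and 14 tested. Without Doxy 3 of the 14 were called, all lower, where 2.79% of all tested probe sets passed. Slc8a1, the sodium-calcium exchanger, fell by 0.52 ± 0.08 (limma adjusted p = 0.000313). The potassium-chloride cotransporter Slc12a7 fell by 0.33 ± 0.07 (limma adjusted p = 0.00745). The sodium-potassium-chloride cotransporter Slc12a2 fell by 0.32 ± 0.08 (limma adjusted p = 0.0388). Under Doxy 2 of the 14 were called, both lower, where 5.88% of all passed. These were Slc8a1, by 0.28 ± 0.06 (limma adjusted p = 0.0132), and Slc12a7, by 0.23 ± 0.06 (limma adjusted p = 0.0193). The calls were read again with each array left out and with the actin ratio in the fit, settings chosen after the data were seen. The actin ratio ended all 5 calls, with -0.43 for Slc8a1 without Doxy (limma adjusted p = 0.0535) and -0.22 with it (limma adjusted p = 0.0802). Without control array 8177 or control array 8182 the calls without Doxy on Slc12a7 and Slc12a2 were lost and that on Slc8a1 held (limma adjusted p = 0.0139 and 0.0219). Of the 20 settings, the Slc12a2 call without Doxy held in only 11. Under Doxy the call on Slc8a1 was lost without FVBN + Doxy array 8340. That on Slc12a7 under Doxy was lost without FVBN + Doxy array 8340 or 8341 or tTA + Doxy array 7488. The medians of the 14 were -0.0253 and -0.0461. The difference in counts between this list and the channels was not tested.

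Of 50 listed proteins that bind, anchor or modify channels, 37 were measured and 28 tested, of which 1 passed without Doxy and 4 with it, beside 2.79% and 5.88% of all tested probe sets. Cttn, which encodes the actin-binding protein cortactin, rose by 0.26 ± 0.06 without Doxy (limma adjusted p = 0.0288) and by 0.22 ± 0.05 with it (limma adjusted p = 0.0175). Under Doxy the ankyrins Ank1 (0.29 ± 0.08, limma adjusted p = 0.0252) and Ank3 (0.16 ± 0.04, limma adjusted p = 0.0261), which anchor membrane proteins, and the muscle caveolin Cav3 (0.24 ± 0.06, limma adjusted p = 0.0252) rose too. The Cttn call without Doxy was lost without control array 8177 (0.185, limma adjusted p = 0.481), without control array 8182 (0.33, limma adjusted p = 0.074) and with the actin ratio in the fit (0.24, limma adjusted p = 0.291). Under Doxy the actin ratio ended the calls on Cttn (limma adjusted p = 0.0571) and Ank1 (limma adjusted p = 0.113) but not those on Ank3 and Cav3, and each of the 4 was lost without at least 1 array. None of the 28 was called lower in either genotype comparison, though 17 had values below 0 without Doxy and 15 with it. Neither list had a called gene in the Doxy comparisons or the interaction. The medians were -0.0367 and -0.00522.

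Few markers of other cells passed, though macrophage markers read lower with tTA. Over all tested probe sets, 2.79% passed between genotypes without Doxy and 5.88% with it. In tTA against FVBN control Emcn of the 10 endothelial markers fell by 0.28 ± 0.07 (limma adjusted p = 0.0266), or by 0.16 without control array 8177 (limma adjusted p = 0.598). The Emcn call was also lost with the actin ratio in the fit. Of 8 tested macrophage markers all 8 were lower in each genotype comparison, with medians of -0.114 and -0.0969. Over all tested probe sets 45% and 56.1% were lower, with medians of 0.0134 and -0.0147. Their summed log2 level ran from 10.417 to 10.523 in FVBN control, from 10.553 to 10.687 in FVBN + Doxy, from 10.245 to 10.499 in tTA and from 10.332 to 10.629 in tTA + Doxy, and its part in the channel values was not tested. Under Doxy Fbln1 of 9 tested fibroblast markers fell by 0.25 ± 0.07 and Cd14 of the 8 macrophage markers by 0.19 ± 0.05. Mybpc3 of 9 tested ventricular muscle markers rose by 0.31 ± 0.05. Of these 3 calls only that on Mybpc3 held in all 20 settings that left out 1 array or added the actin ratio. In tTA + Doxy against tTA, where 0.0671% of all tested probe sets passed, the smooth muscle gene Myl9 rose by 0.29 ± 0.05 (limma adjusted p = 0.0139). No atrial, neuron and Schwann cell, adipocyte, conduction tissue or red blood cell marker passed in any comparison, though 1 to 4 genes of each were tested.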

How the data were processed

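RNA from mouse ventricle was measured on 20 Affymetrix arrays with 12488 probe sets each. The values the authors deposited are intensities on a linear scale; how probes were summarised and normalised is not given in the sources used here. No depth applies to arrays, and their number limits the precision. The array titles placed 19 arrays in 4 groups, and 1 array with no number or treatment in its title entered no comparison. A table of GEO's platform annotation linked 10833 probe sets to 1 gene, 396 to several and 1193 to none, and 10817 were matched by gene number to RefSeq symbols.

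After the 66 control probe sets were left out, the arrays were quantile normalised (R 4.3.3, limma 3.58.1). Values under 14.37, their 10th percentile, were set to it before the log2 was taken. The brightest 60%, 7453 probe sets for 5659 genes, were tested. Linear models with 4 group means used eBayes with an intensity trend and robust moderation. A gene was called at a Benjamini-Hochberg adjusted p below 0.05 over all 7453. The fit was tested on simulated data. Plots used Python 3.11.15 and matplotlib 3.10.9.

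Named genes are those called in any comparison, the textbook ventricular channels, and the highest and lowest tested gene of each family in each genotype or Doxy comparison, 42 in all. Lists of partner proteins and of cell markers were read beside them. Members and lists were chosen with earlier results of these data known. Alternatives covered normalisation, floor, intensity filter, array weights, the actin ratio, the moderation, the arrays in the fit, the threshold, the probe set and each array left out. Abcc9 and other genes with suffix _s_at have probes that can match several transcripts. Promoters were found for 53 of the 69 genes.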

Additional observations from a re-analysis of the deposited data

Results flagged for a closer look

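In groups of 4 or more arrays, 99 combinations of named gene and group were screened for a lone high or low array, and 5 were found; chance alone gives about 1 in 20. In tTA + Doxy, array 7486 read high for Kcnk3 (8.224, the others 7.665 to 7.764) and for Kcnj8 (7.214, the others 7.019 to 7.057), and array 7424 read low for Clcn3 (7.133, the others 7.336 to 7.383). In FVBN + Doxy, array 8341 read high for Hcn2 (9.596, the others 9.494 to 9.506) and array 8338 for Kcnj11 (8.045, the others 7.874 to 7.899).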

How the results depend on the processing

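The count of called channel genes moved between 0 and 2 in the genotype comparisons. For tTA against FVBN control, where it was 1, it became 2 with array weights or an adjusted p below 0.1 (Abcc9 and Kcnn1), 0 with the actin ratio and 0 to 2 with 1 array left out. For tTA + Doxy against FVBN + Doxy, where it was 0, it became 2 on the brightest 40%, without trend and robust moderation or at an adjusted p below 0.1 (Abcc9 and Kcnk3), 1 on all probe sets (Cacng1), with array weights (Kcnk3) or without tTA arrays 9310 and 9322 (Abcc9), and 0 to 2 with 1 array left out. On the second brightest probe sets the count in tTA against FVBN control was 0, but Abcc9 has no second probe set, so that says nothing on its call. The Doxy comparisons and the interaction stayed at 0 in all these settings. The cause was not tested. Of 4872 values of 165 named gene and comparison pairs under alternatives, 3 lost a call, all of Abcc9, 17 gained one and 0 called values reversed; 152 that passed in neither setting changed sign. No paired analysis was possible because the groups share no array numbers. Signal over background limits the 31 genes below the cutoff.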

Other observations

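The array titled only Cardiac tTA expression has no group. Of the 38 tested channel genes, 37 lay within the range of the grouped arrays on it, and Kcnh1 lay below, at 5.691 against 5.713 to 5.992. Its beta-actin control ratio (3' over 5', log2) was 0.529.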
